A study of Homo sapiens with 2 samples.

Results

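The unfolded protein response and the integrated stress response were followed in BEAS-2B cells made to overexpress TRPV3 and in WT BEAS-2B cells. Both responses were read through 35 named genes of the 58051 annotated in the count tables. The 35 genes were listed by name and not by measured values, though earlier results of these data were known when they were chosen. Each symbol matched 1 gene identifier. They were separated by textbook role into a PERK/ATF4 arm of 14 genes, an ATF6 arm of 11 and an IRE1/XBP1 arm of 10. ATF6 and XBP1 share many targets, so the border between their arms is a working one.

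RNA was sequenced from 1 library of TRPV3-overexpressing BEAS-2B cells (genotype TRPV3-OE, passage 4 to 8) and 1 library of BEAS-2B cells (genotype WT, passage 20 to 30). BEAS-2B is an immortalised human bronchial epithelial line, and TRPV3 is a calcium-permeable cation channel best known from skin keratinocytes. Cells of both groups were grown in LHC-9 medium on collagen and fibronectin, received no agent and were harvested at confluence. How the overexpressing line was made, and whether it is 1 clone, is not given in the sources used here. Passage differs between the groups and cannot be told apart from genotype.

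The endoplasmic reticulum (ER) folds secreted and membrane proteins, and an excess of unfolded protein there is sensed by PERK, ATF6 and IRE1. PERK phosphorylates the initiation factor eIF2, which slows translation in general while favouring translation of the transcription factor ATF4; ATF6 is cut in the Golgi to release a transcription factor; IRE1 splices XBP1 messenger RNA so that it encodes one. Secretory cells such as airway epithelium lean on these pathways, and calcium within the ER is needed by many of its chaperones. Gene counts show neither translation of ATF4, nor cleavage of ATF6, nor splicing of XBP1.

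Total counts were 17477953 in the TRPV3-OE library and 17450658 in the WT library. TRPV3 had 54077 counts in the TRPV3-OE library and 26 in the WT library, as its label says. Of 14 airway epithelial markers 12 had at least 100 counts summed over both libraries, among them EPCAM, CDH1, KRT5 and KRT18. Among the 12, ELF3 (2001 counts in the TRPV3-OE library, 622 in the WT library) and FOXA2 (782 and 362) were at least 2-fold higher. KRT17 was at least 2-fold lower, with 6582 counts in the TRPV3-OE library and 12968 in the WT library. That is 16.7% higher and 8.33% lower, against 5.31% and 5.35% of all genes with that minimum. The lung factor NKX2-1 had a count of 0 in both libraries, as did PTPRC of 5 leukocyte markers and KDR of 4 endothelial ones. Single markers of other cell types were measured and differed: CD14 had 460 counts in the TRPV3-OE library and 72 in the WT library, CDH5 had 35 and 268, and COL1A1 had 285 and 410. Their part in the results was not tested. Each genotype is represented by 1 library, so differences could not be set against replicate spread and were not tested. Exact 95% intervals describe counting error alone, and PCR copies of a molecule were counted as separate reads. Levels are given as scaled counts per 1000000 (CPM), and levels of different genes are compared as CPM per kilobase of exon.

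Of the 35 genes 32 were measured, meaning at least 100 counts summed over both libraries. Among them 1 gene, STC2, was at least 2-fold higher in the TRPV3-OE library and 1, HERPUD1, at least 2-fold lower, and 30 lay between. Across all 11466 measured genes 5.31% were called higher and 5.35% lower by the same rule, so the members' shares of 3.13% and 3.13% lay near or under the background. The median log2 ratio of TRPV3-OE over WT was 0.12 over the 32 measured members and −0.03 over all measured genes. Members also differed by less in size, with a median absolute log2 ratio of 0.19 against 0.33 over all measured genes. Counting intervals lay wholly above 0 for 16 members, held 0 for 12 and lay wholly below 0 for 4; over all measured genes 33.8% lay above and 38.9% below. In all, the 35 genes took 0.812% of unscaled counts in the TRPV3-OE library (exact binomial interval 0.808% to 0.817%) and 0.702% in the WT library (0.698% to 0.706%). That is 1.16-fold higher by total counts, and 1.11-fold higher with the scaling used for the ratios. A few abundant genes weigh most in these shares: HSP90B1 alone held 39262 of 142008 counts in TRPV3-OE and 35042 of 122502 in WT.

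**Figure D1:**
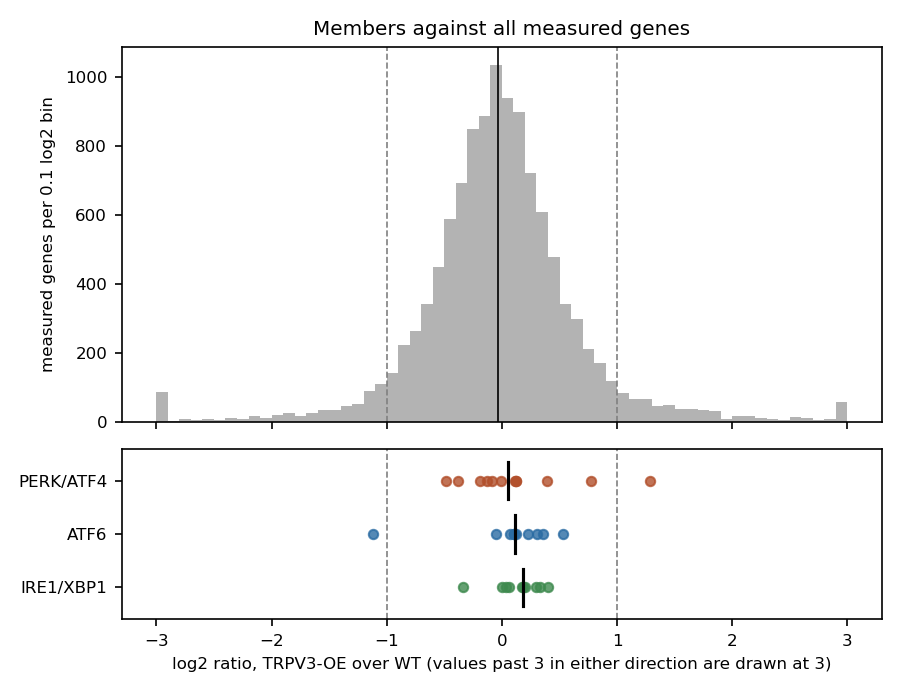
The upper panel counts all 11466 measured genes by log2 ratio of TRPV3-OE over WT in bins of 0.1, with a solid line at their median of −0.03; the lower panel shows each measured member as a point, by arm, with a black bar at the arm's median. Dashed lines mark 2-fold, and STC2 at 1.29 and HERPUD1 at −1.12 are the members beyond them.

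The 3 stress sensors differed little. EIF2AK3, which encodes PERK, had 381 counts in the TRPV3-OE library and 336 in the WT library (log2 ratio 0.13, interval −0.09 to 0.34). ATF6 had 1406 and 1156 counts in the same order (0.23, 0.11 to 0.34). ERN1, which encodes IRE1, had 243 counts in the TRPV3-OE library against 296 in the WT library (−0.34, −0.59 to −0.09). The intervals of PERK and ATF6 overlap, while that of IRE1 lies wholly below 0 and ends where that of PERK begins, at −0.09. IRE1 was also the least abundant sensor per length, at 1.26 CPM per kilobase in the TRPV3-OE library and 1.59 in the WT library, where PERK stood at 3.94 and 3.61.

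In the PERK/ATF4 arm 12 of 14 genes were measured, of which 1 was at least 2-fold higher and 0 were lower; the median log2 ratio was 0.05. No transcription factor of the arm had an interval wholly above 0 under the scaling reported here. ATF4, its central activator, had 4096 counts in the TRPV3-OE library and 4495 in the WT library (230 and 262 CPM, log2 ratio −0.19, −0.25 to −0.13). DDIT3, which encodes the pro-apoptotic factor CHOP, had 102 and 128 counts in TRPV3-OE and WT (−0.38, −0.77 to 0.00). CEBPG, a dimer partner of ATF4, had 814 and 723 counts (0.11, −0.03 to 0.26). NUPR1, a stress-induced chromatin protein, had 11 counts in the TRPV3-OE library and 12 in the WT library, too few to be measured.

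Both feedback genes of this arm were level within counting error. TRIB3, a pseudokinase that ATF4 and CHOP induce and that restrains them, had 1724 counts in the TRPV3-OE library and 1761 in the WT library (log2 ratio −0.09, −0.18 to 0.01). PPP1R15A, the stress-induced subunit of the phosphatase that removes the phosphate from eIF2, had 837 and 878 counts (−0.13, −0.26 to 0.01). A subtraction of the surroundings on the chromosome moved TRIB3, since its 50 closest measured neighbours on chromosome 20 had a median of 0.48, and TRIB3 stood at −0.56 after it.

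The effector genes of the arm went separate ways. STC2, which encodes the secreted glycoprotein stanniocalcin 2, had 1827 counts in the TRPV3-OE library against 719 in the WT library. Its level was 103 CPM (97.9 to 107) in TRPV3-OE and 42.0 CPM (39.0 to 45.2) in WT, 2.44-fold higher, with a log2 ratio of 1.29 (1.16 to 1.42) whose whole interval is past 2-fold. The gene lies on chromosome 5 (ENSG00000113739, 173314713 to 173329503, minus strand, GRCh38), where its 50 nearest measured genes had a median log2 ratio of 0.03. CHAC1, a glutathione-degrading enzyme and a sensitive ATF4 target, was next with 105 counts in the TRPV3-OE library and 59 in the WT library (1.71-fold, log2 ratio 0.78, 0.30 to 1.26). CHAC1 was scarce in both libraries, at 2.87 CPM per kilobase in TRPV3-OE and 1.67 in WT. With the limit at 1.5-fold, STC2 and CHAC1 were the 2 members called higher, where 12.7% of all measured genes were, and HERPUD1 the 1 called lower, where 14.2% were.

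The amino acid enzymes split. ASNS, asparagine synthetase, had 2711 counts in the TRPV3-OE library and 1983 in the WT library (1.31-fold higher, log2 ratio 0.39, 0.31 to 0.48). PSAT1, the aminotransferase of serine synthesis, had 3188 counts in TRPV3-OE against 4291 in WT (1.40-fold lower, −0.48, −0.55 to −0.42). The 2 genes are both ATF4 targets and their intervals lie on opposite sides of 0, by less than 2-fold each.

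DDIT4, an inhibitor of mTORC1 signalling, was the most abundant gene of the arm per length, at 371 CPM per kilobase in the TRPV3-OE library and 373 in the WT library (13601 and 13150 counts, log2 ratio −0.01, −0.04 to 0.03). SESN2, another inhibitor of mTORC1, had 453 counts in TRPV3-OE and 401 in WT (0.12, −0.08 to 0.32). VLDLR, a lipoprotein receptor, had 5 and 7 counts, so a difference was not detectable at this depth. Summed over its 14 genes, the arm had a log2 ratio of −0.01 (−0.03 to 0.01), which turned to 0.03 (0.01 to 0.05) with DESeq2 size factors, 0.04 (0.02 to 0.07) with total counts and 0.05 (0.02 to 0.07) with upper quartile scaling. DDIT4 alone held 13601 of the arm's 29855 counts in TRPV3-OE and 13150 of 28943 in WT, so the sum leans on it. The sums of the ATF6 arm (0.18, 0.17 to 0.20) and the IRE1/XBP1 arm (0.25, 0.23 to 0.27) lay above 0 under the scaling reported here. The median of the measured PERK/ATF4 genes was 0.11 with total counts and with upper quartile scaling.

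**Figure D2:**
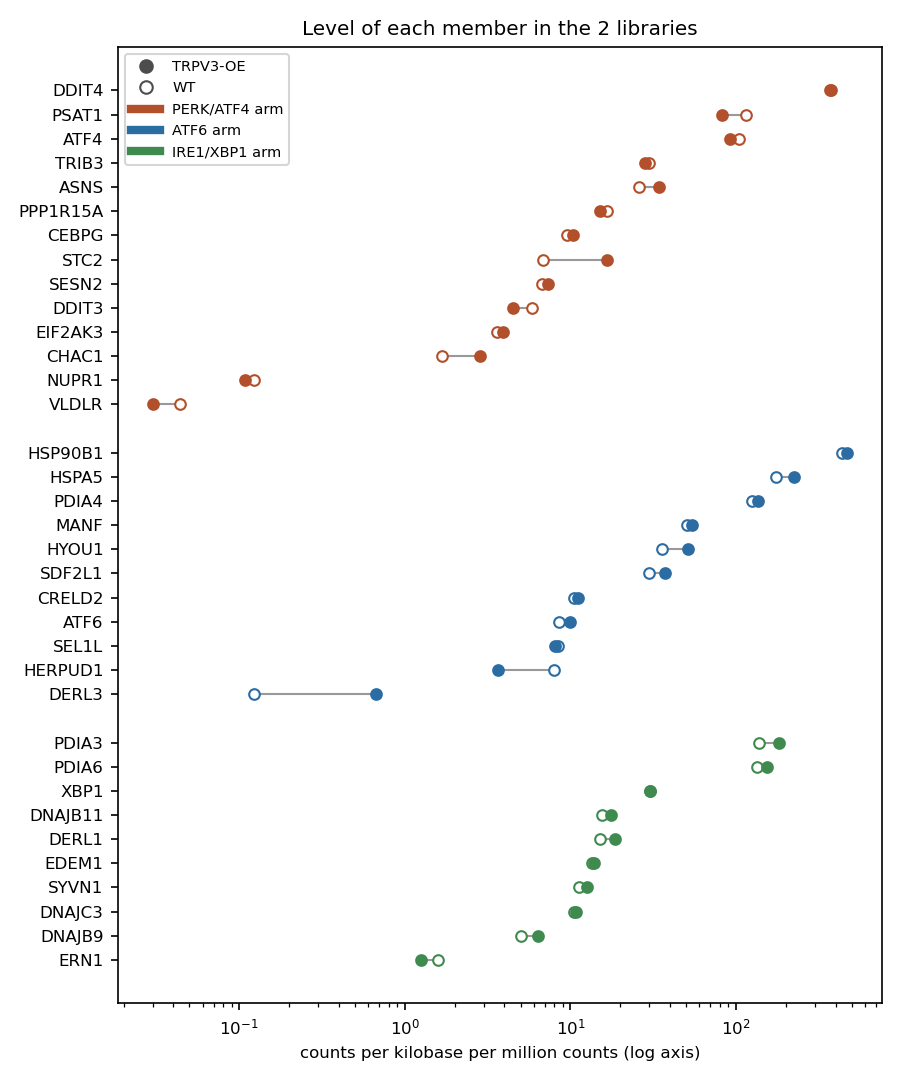
Each member's level in CPM per kilobase of exon is drawn on a log axis, filled for the TRPV3-OE library and open for the WT library, with arms in separate blocks sorted by the WT level. Levels ran from VLDLR at 0.0301 in TRPV3-OE and 0.0438 in WT to HSP90B1 at 470 and 436, and most pairs of points nearly coincide.

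ER chaperones and disulfide isomerases, which carry out folding and are among the targets of the ATF6 and XBP1 arms, were slightly higher together in the TRPV3-OE library. All 11 had log2 ratios above 0 under the scaling reported here, where 47.0% of all measured genes did, and 0 of the 11 reached 2-fold. The 4 other scalings tried each raised all ratios by 1 amount, so they could not turn these 11. Their median log2 ratio was 0.20, from 0.03 for DNAJC3 to 0.53 for HYOU1. Of the 11 intervals 9 lay above 0, where 33.8% of all measured genes did. Intervals narrow as counts rise, so in abundant genes even a small ratio clears 0, as in HSP90B1 (0.09 to 0.13). The 11 genes took 0.571% of unscaled counts (0.568% to 0.575%) in the TRPV3-OE library and 0.471% (0.468% to 0.474%) in the WT library. That is 1.21-fold higher by total counts, and 1.17-fold higher with the scaling used for the ratios.

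HYOU1, an ER member of the heat shock protein 70 family, differed most among them, with 7046 counts in the TRPV3-OE library and 4691 in the WT library (396 and 274 CPM, 1.44-fold, log2 ratio 0.53, 0.48 to 0.58). HSPA5, which encodes BiP, the master chaperone of the ER lumen, had 15529 counts in TRPV3-OE and 11641 in WT (872 and 680 CPM, 1.28-fold, 0.36, 0.32 to 0.39). Around HSPA5, on chromosome 9, the 50 closest measured neighbours had a median of 0.42, above that of HSPA5 itself. Around HYOU1, on chromosome 11, it was −0.04. With such local medians subtracted, 8 of the 11 stood above 0 and 3 below, namely HSPA5 (−0.06), PDIA4 (−0.11) and CRELD2 (−0.0028), and the median of the 11 was 0.17. Of all measured genes 5732 stood above 0 after such subtraction and 5706 below. The part of position in these values was not tested.

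HSP90B1, the ER chaperone of the heat shock protein 90 family, was the most abundant member, with 39262 counts in the TRPV3-OE library and 35042 in the WT library (log2 ratio 0.11, 0.09 to 0.13). SDF2L1, a BiP cofactor, had 725 and 564 counts in TRPV3-OE and WT (0.31, 0.15 to 0.47). Among the disulfide isomerases, PDIA3 had 13730 counts in TRPV3-OE against 10033 in WT (0.40, 0.36 to 0.43), and PDIA6 had 11325 against 9458 (0.20, 0.16 to 0.24). PDIA4 stood at 0.12 (0.08 to 0.17) and CRELD2 at 0.07 (−0.06 to 0.20). PDIA3 has 2 pseudogenes of its name in the tables, which held 36 counts in TRPV3-OE and 34 in WT, so reads that align to both gene and copy, and were left out, make its level uncertain. HSPA5, ATF4, XBP1, ASNS and PSAT1 have such named copies too, each with at most 4 counts in either library. MANF, a secreted ER stress factor that protects neurons, had 2046 counts in TRPV3-OE and 1826 in WT (0.11, 0.02 to 0.20).

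**Figure D3:**
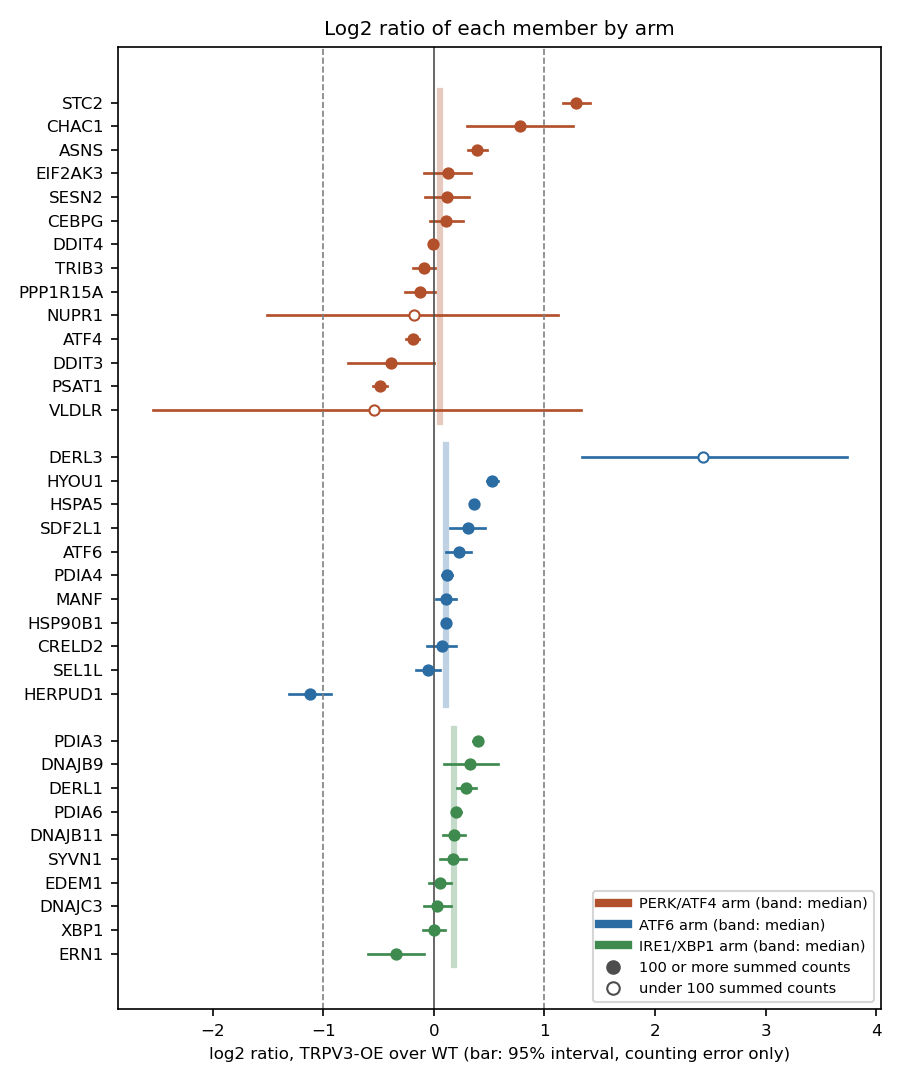
Points give each member's log2 ratio of TRPV3-OE over WT with its exact 95% counting interval, by arm, with a pale band at the median of the arm's measured genes (0.05 for PERK/ATF4, 0.11 for ATF6, 0.18 for IRE1/XBP1). Open points have under 100 summed counts, dashed lines mark 2-fold, and DERL3 is the open point at 2.44.

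Among the 5 measured genes of ER-associated degradation (ERAD), which extracts misfolded proteins for the proteasome, 2 intervals lay above 0, 2 held 0 and 1, that of HERPUD1, lay below. The shares over all measured genes were 33.8% above and 38.9% below. HERPUD1, a membrane protein that organises the ERAD ligase complex and answers to ATF6, XBP1 and ATF4, had 335 counts in the TRPV3-OE library against 700 in the WT library. Its level was 18.8 CPM (16.9 to 20.9) in TRPV3-OE and 40.9 CPM (37.9 to 44.0) in WT, 2.17-fold lower, with a log2 ratio of −1.12 (−1.31 to −0.93). The gene lies on chromosome 16 (ENSG00000051108, 56932048 to 56944863, plus strand, GRCh38). Its 50 nearest measured genes had a median log2 ratio of −0.29, and HERPUD1 stood at −0.83, under 2-fold, once that was subtracted.

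The other 4 measured ERAD members lay between −0.05 and 0.30. SEL1L, the scaffold of the HRD1 ligase, had 1379 counts in the TRPV3-OE library and 1373 in the WT library (log2 ratio −0.05, −0.16 to 0.06). SYVN1, which encodes HRD1 itself, had 1236 and 1054 counts in TRPV3-OE and WT (0.17, 0.05 to 0.29), and 7.24% of its exon bases also lie in exons of FAU on the same strand. EDEM1, which directs glycoproteins to degradation, stood at 0.06 (−0.04 to 0.16). DERL1, a channel component on chromosome 8, had 2334 counts in TRPV3-OE and 1829 in WT (0.30, 0.21 to 0.38). Its paralog DERL3 had 45 counts in TRPV3-OE and 8 in WT, 5.41-fold higher (2.44, 1.34 to 3.73), but it was under the minimum of 100, at 0.666 CPM per kilobase in TRPV3-OE and 0.123 in WT.

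In the IRE1/XBP1 arm all 10 genes were measured and 0 passed 2-fold in either direction, with a median log2 ratio of 0.18. XBP1 had 1632 counts in the TRPV3-OE library and 1570 in the WT library, 91.6 and 91.7 CPM (log2 ratio 0.00, −0.10 to 0.10). DNAJB9, a BiP cofactor often read as an XBP1 target, had 322 and 246 counts in TRPV3-OE and WT (0.33, 0.09 to 0.58). DNAJB11 had 1803 counts in TRPV3-OE and 1523 in WT (0.19, 0.09 to 0.29), and DNAJC3, a BiP cofactor that also inhibits PERK, had 1076 and 1011 (0.03, −0.09 to 0.16). Over the 3 genes of the arm not marked as shared with another arm (ERN1, DNAJB9 and EDEM1), the median was 0.06. Of the exon bases of DNAJB11, 7.87% also lie in an unnamed gene on the same strand.

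Promoter sequences of the members were searched for the response elements named after this pathway, and windows from 250 bases before to 50 bases after the annotated start were found for 31 of the 35 genes (RefSeq, GRCh38.p14), in 40 windows. The ER stress response element ERSE, spelled ccaat, 9 bases of any kind and ccacg, was in windows of 5 of the 31 members and of 0.0916% of the 27305 genes in the table. The shorter ERSE-II, attgg, any base and ccacg, was in 3 of 31 members and 0.0696% of genes. The 8 genes with either were 6 of 10 in the ATF6 arm, 2 of 8 in the IRE1/XBP1 arm and 0 of 13 in the PERK/ATF4 arm. The C/EBP-ATF element was in 0 of 31 members and 1.22% of genes when spelled tgatgnaat. With any base allowed in its last place, a spelling chosen after the data were seen, it was in 4 of 31 members (ASNS, CEBPG and CHAC1 of the PERK/ATF4 arm, and HERPUD1) and 4.45% of genes. Both strands were read, and a match is a description of letters, not of a bound site. Members and elements were both taken from textbook knowledge of this pathway. A higher share among members than among all genes is therefore built into the choice, and it was not tested. The matched stretches are shown because they mark the genes that share a textbook element; some run on the opposite strand and are printed as they read along the gene.
HYOU1, 185 to 175 bases before the start, ERSE-II, opposite strand: CGTGGTCCAAT
HYOU1, 79 to 69 bases before, ERSE-II, opposite strand: CGTGGTCCAAT
HSPA5, 66 to 48 bases before, ERSE: CCAATCGGCGGCCTCCACG
SDF2L1, 188 to 178 bases before, ERSE-II, opposite strand: CGTGGACCAAT
PDIA6, 86 to 68 bases before, ERSE: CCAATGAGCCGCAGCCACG
HSP90B1, 194 to 176 bases before, ERSE: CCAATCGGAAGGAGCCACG
HSP90B1, 89 to 71 bases before, ERSE, opposite strand: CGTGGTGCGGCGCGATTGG
CRELD2, 80 to 62 bases before, ERSE, opposite strand: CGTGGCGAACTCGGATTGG
XBP1, 52 to 34 bases before, ERSE: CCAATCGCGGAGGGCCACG
HERPUD1, 117 to 107 bases before, ERSE-II: ATTGGGCCACG

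The genes with an element did not move as a block. They are listed above from the highest log2 ratio to the lowest, from HYOU1 at 0.53 to HERPUD1 at −1.12, so the highest and the lowest measured gene of the ATF6 arm both carry ERSE-II. The whole windows of these 2 genes and of HSPA5 follow, 5′ to 3′ along each gene, with matches of ERSE, ERSE-II and the element named next in capitals; in HYOU1 the first stretch joins an ERSE-II to an overlapping tgacgtgg, the core of the unfolded protein response element (UPRE), which 0.927% of genes held.
HYOU1, chr11:119057156-119057455, minus strand: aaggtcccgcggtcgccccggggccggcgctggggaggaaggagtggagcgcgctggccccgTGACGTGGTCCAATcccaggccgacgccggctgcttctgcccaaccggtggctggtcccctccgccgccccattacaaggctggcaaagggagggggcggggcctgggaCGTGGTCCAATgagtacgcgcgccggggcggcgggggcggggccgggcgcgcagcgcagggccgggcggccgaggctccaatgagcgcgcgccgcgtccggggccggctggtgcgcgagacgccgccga
HSPA5, chr9:125241294-125241593, minus strand: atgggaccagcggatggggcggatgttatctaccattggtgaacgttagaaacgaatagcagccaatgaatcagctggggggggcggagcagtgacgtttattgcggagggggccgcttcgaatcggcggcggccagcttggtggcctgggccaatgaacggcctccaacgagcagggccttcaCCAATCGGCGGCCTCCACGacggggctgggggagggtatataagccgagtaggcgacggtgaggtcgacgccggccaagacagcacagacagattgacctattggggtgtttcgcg
HERPUD1, chr16:56931892-56932191, plus strand: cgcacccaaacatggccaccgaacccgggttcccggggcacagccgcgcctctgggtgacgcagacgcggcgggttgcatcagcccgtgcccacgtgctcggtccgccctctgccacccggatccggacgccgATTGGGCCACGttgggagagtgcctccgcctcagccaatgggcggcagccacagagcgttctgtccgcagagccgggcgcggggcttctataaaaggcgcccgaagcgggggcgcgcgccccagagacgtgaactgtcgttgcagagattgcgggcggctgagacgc

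**Figure D4:**
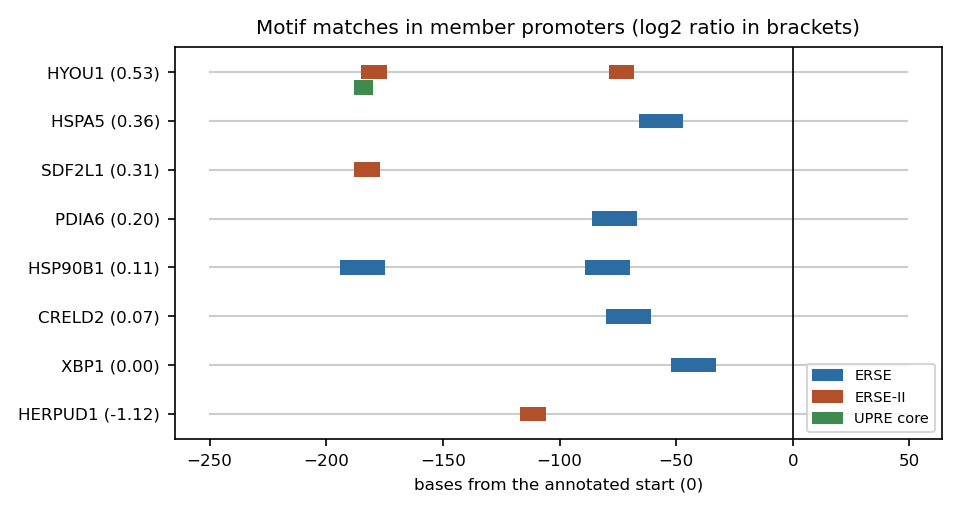
Coloured boxes show where each motif match lies in the promoter windows of the 8 members with an ERSE or ERSE-II, in bases from the annotated start, with genes sorted from the highest log2 ratio of TRPV3-OE over WT to the lowest. All boxes lie before the start, between 194 and 34 bases from it.

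A wider set of 136 genes of the same pathways, none of them among the 35, was read the same way, and 127 were measured. At the 2-fold limit 5 of these were higher (3.94%) and 4 lower (3.15%), again under the shares of 5.31% and 5.35% over all measured genes, with a median log2 ratio of 0.03. Summed counts were not matched here either. Of 14 measured other targets of ATF4 and CHOP, 2 were at least 2-fold higher and 0 lower, with a median of 0.43 that was 0.20 after subtraction of local medians. Intervals lay above 0 for 8 of the 14 and below 0 for 5, where 33.8% and 38.9% of all measured genes did. The called genes were GDF15, a stress hormone, with 665 counts in the TRPV3-OE library and 262 in the WT library (log2 ratio 1.29), and the stress-induced factor ATF3 with 200 and 86 (1.16, or 0.87 and under 2-fold after subtraction of the local median).

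ATF4 targets of amino acid supply again divided. The transporter list had 6 of 8 intervals below 0, where 38.9% of all measured genes did, and a median of −0.39, with the cystine transporter gene SLC7A11 at 385 counts in TRPV3-OE against 818 in WT (log2 ratio −1.14) and a median of −0.70 around it. SLC1A4, a neutral amino acid transporter gene, went against the list with 406 counts in TRPV3-OE and 198 in WT (0.98), and passed 2-fold under 3 other scalings; it is named here after its value was seen. PHGDH, the first enzyme of serine synthesis, had 7881 counts in TRPV3-OE and 3304 in WT (1.20), opposite to PSAT1, the next enzyme of that route. Its 50 nearest measured genes on chromosome 1 had a median of 0.73. PHGDH belongs to a list of amino acid and one-carbon enzymes with 9 measured genes and a median of 0.06. Of their intervals 5 lay above 0 and 4 below, where 33.8% and 38.9% of all measured genes did. At the 1.5-fold limit 1 of the 9 was higher and 3 were lower, where 12.7% and 14.2% of all measured genes were. Of 13 genes for aminoacyl-tRNA synthetases and tRNA export, SARS1 (1.02, with a median of 0.71 around it) was at least 2-fold higher and 0 were lower. The median of the 13 was −0.02, with 5 intervals above 0 and 6 below, and at the 1.5-fold limit 1 was higher and 3 were lower.

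Other ER chaperones and oxidoreductases had a median log2 ratio of 0.26 over 16 measured genes, close to the 0.20 of the member chaperones and isomerases. They were more mixed than the members, of which all 11 had ratios above 0. Of the 16 intervals 11 lay above 0 and 5 below, among the latter that of the abundant CALR (−0.08, −0.11 to −0.04). Over all measured genes 33.8% of intervals lay above 0 and 38.9% below. ERO1B, an ER oxidase, had 177 counts in the TRPV3-OE library and 73 in the WT library (1.22, or 0.99 and under 2-fold after subtraction of the local median), and TXNDC5, an isomerase, had 63 and 122 (−1.01, under 2-fold with 3 other scalings, and a median of −0.84 around it). Other ERAD genes had 0 of 20 past 2-fold in either direction and a median of 0.16. In the list of translocation and secretory transport 2 of 25 were at least 2-fold lower and 0 higher, the retrieval receptor gene KDELR3 (63 counts in TRPV3-OE, 189 in WT, −1.64) and the coat protein gene SEC24D (398 and 797, −1.06, under 2-fold with upper quartile scaling, and −0.50 after subtraction of a local median of −0.56). Neither the eIF2 kinases and eIF2B subunits (12 measured), nor the ATF6 family and its proteases (6), nor the IRE1 partners (4) had a gene past 2-fold. Over all measured genes 5.31% were called higher and 5.35% lower by this rule. At those shares lists this short could hold few called genes or none.

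**Figure D5:**
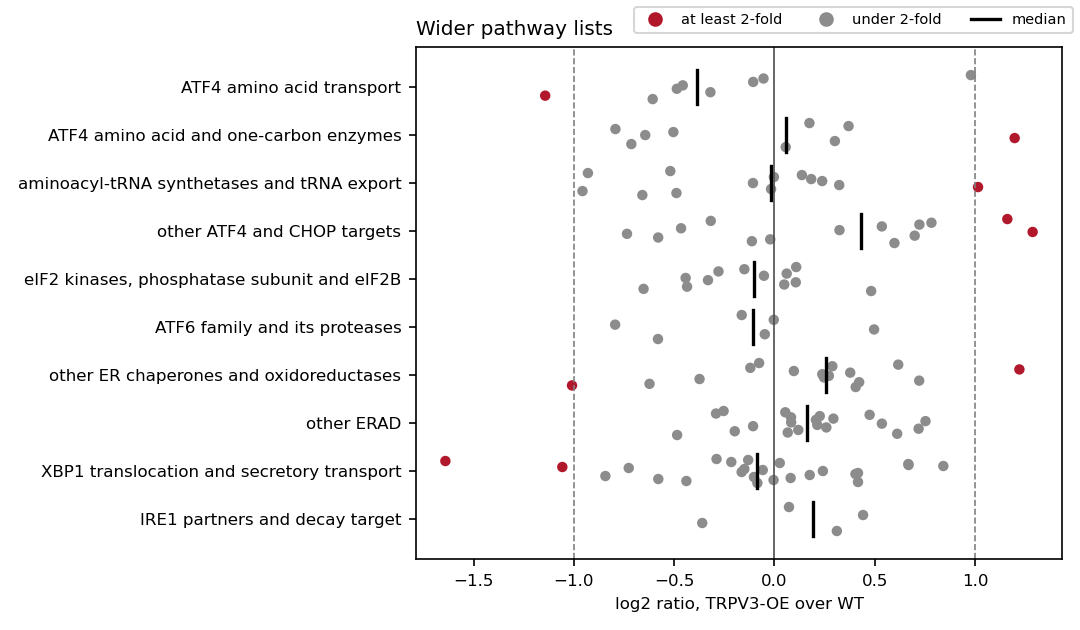
Each point is a measured gene of the wider pathway lists at its log2 ratio of TRPV3-OE over WT, red where at least 2-fold, with a black bar at the list's median and dashed lines at 2-fold. Of 127 genes 9 are red, 5 of them to the right and 4 to the left.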

How the data were processed

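The authors deposited raw counts of reads per gene, made with featureCounts 1.5.0-p3 on its strand setting 2 with gene models of Ensembl release 87 (build GRCh38.p7), per the file headers. No option for multi-mapping reads or overlapping genes was set there, and such reads are by default not counted. STAR and DESeq2 are also named, per the submitters' processing notes. The deposited counts are not normalised.

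Symbols came from a gene name table. Libraries were scaled by TMM (edgeR 4.0.16, R 4.3.3), and no model was fitted with 1 library per group. The log2 ratio is TRPV3-OE over WT, and its 95% interval is the exact (Clopper-Pearson) one of a binomial share, conditional on the summed count; CPM has an exact Poisson interval. In ratios 0.5 replaced a count of 0. A call of at least 2-fold needs the ratio past 2-fold and its interval on that side of 0 (log2). The calculation was tested on simulated Poisson counts, which hold no spread between libraries. Such a check can show errors of calculation only. Local medians use the 50 nearest measured genes on the chromosome. All 35 genes are named, and of the wider lists up to 4 called genes each. The members and lists were chosen with earlier results of these data known. Alternatives covered scaling (total counts, DESeq2 1.42.0, upper quartile, TMM without TRPV3 and mitochondrial genes), the count minimum, the 2-fold limit, a prior count of 5, local medians, shared genes and means. Python 3.11.15, scipy 1.17.1 and pandas 2.3.3 were used.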

Additional observations from a re-analysis of the deposited data

How the results depend on the processing

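No paired analysis was possible because either genotype has 1 library only, which also means that no replicate could be left out. No scaling turned the direction of the chaperones and isomerases or of STC2 and HERPUD1. The other scalings each raised all ratios by 1 amount, so ratios above 0 could not turn. With total counts the median of all measured genes was itself 0.02. XBP1, DDIT4 and SEL1L, whose intervals hold 0, changed sign under other scalings. With a minimum of 1 or 20 summed counts, DERL3 entered, giving 2 members at least 2-fold higher, 1 of them in the ATF6 arm. At the 1.5-fold limit CHAC1 passed as well, giving 2 higher members, both in the PERK/ATF4 arm. Subtracting local medians left 0 members lower, in all and in the ATF6 arm, and put 3 of the 11 chaperones and isomerases below 0. With any base in its last place, an alternative chosen after seeing the data, the C/EBP-ATF element was in 4 members in place of 0. The IRE1/XBP1 median was 0.058 without shared genes, and the ATF6 mean was 0.066 against a median of 0.11. The PERK/ATF4 median was −0.05 with a minimum of 1 count. Over all genes, 609 were higher and 614 lower; these became 1347 and 1121 with a minimum of 1, 1094 and 942 with 20, 245 and 323 with 500, and 1455 and 1627 at 1.5-fold, as more or fewer genes qualify by construction. Of 210 member ratios under other scalings, the prior count and local medians, 172 stayed within their interval, 38 moved beyond it and none of the called ones reversed. Genes with few counts, such as VLDLR and NUPR1, limit what this depth can show.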
